A study of Mus musculus with 6 samples.

Results

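The genes described here are 10 imprinted growth genes: H19, Igf2, Meg3, Dlk1, Peg3, Mest, Cdkn1c, Grb10, Igf2r and Plagl1. They were taken by symbol, and the read counts of all transcripts with that symbol were summed in each library. All 10 were among the 41253 gene symbols of the deposited tables, and 9 of the 10 had enough reads to be tested. The samples were oesophageal squamous cell carcinomas of C57BL/6 mice, each sequenced as total RNA. All 6 mice had been given the carcinogen 4NQO with their drinking water (labelled 100 mg/mL, copied as given) for 16 weeks, beginning at 6 weeks of age. They were killed 12 weeks after the treatment ended, or earlier if body weight had dropped too far. The design compared 3 wild-type (WT) mice with 3 Ptpro-/- mice (labelled Ptpro-KO), labelled as without the receptor-type tyrosine phosphatase PTPRO. The design text gives an age of 34 weeks and a sample tag gives week 6. The labels do not say which part of Ptpro was deleted.

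An imprinted gene is read mainly from the copy inherited from a single parent, because a DNA methylation mark laid down in the egg or sperm silences the other copy or a control region beside it. Several of these genes set the growth of the fetus and placenta. Paternally expressed Igf2, Dlk1, Peg3, Mest and Plagl1 are known for roles in growth and metabolism, while maternally expressed H19, Meg3, Cdkn1c, Grb10 and Igf2r mostly restrain growth. Many of them fall to low levels in adult organs, and several stay on in skeletal muscle, connective tissue or stem cells. The counts do not separate the parental copies, so none of the values below measures imprinting itself.

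The libraries held 25745240 to 39827467 reads on transcripts, and 17663 genes were tested. The deleted gene went against the labels. Ptpro had 9 to 174 reads in the libraries labelled WT and 1094 to 1921 in those labelled Ptpro-KO, so every direction below is between labels and not between known genotypes. Whether reads fall inside the deleted part of Ptpro is not known here. Squamous keratin and desmosome markers were present in all 6 libraries, with a summed level of 35221 to 44736 CPM (reads scaled to a common library size, here by TMM) under the WT label and 11333 to 18798 under the Ptpro-KO label. WT replicate 2 and Ptpro-KO replicate 3 held few skeletal muscle reads. Ptpro-KO replicate 3 also stood apart by stomach epithelium markers, at 14196 CPM in sum against at most 26.2 elsewhere, and Ptpro-KO replicate 2 by thyroid markers, at 782 CPM in sum against at most 26.6 elsewhere. Xist and Y-linked reads gave 1 female and 2 males under the WT label and 2 females and 1 male under the Ptpro-KO label. The smallest p-value that an exact two-sided permutation of 3 against 3 libraries can give is 0.1, so calls rest on the model fitted across all genes, and differences between labels are given as Ptpro-KO minus WT. In bulk tumour RNA, fewer cells of a type and less RNA per cell cannot be told apart.

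The promoters of Igf2, Meg3 and Peg3 are printed because these paternal and maternal genes had the 3 highest log2 fold changes among the 9 tested members. Each is the 250 bases before the RefSeq start near which the transcripts assigned most of the gene's reads begin (RefSeq, GRCm38.p6, 5′ to 3′ on the gene's own strand). Capitals mark the letters TGACGTCA, the cAMP response element, and TATAAA, the TATA box, on either strand.
Igf2, chr7:142657497-142657746, minus strand: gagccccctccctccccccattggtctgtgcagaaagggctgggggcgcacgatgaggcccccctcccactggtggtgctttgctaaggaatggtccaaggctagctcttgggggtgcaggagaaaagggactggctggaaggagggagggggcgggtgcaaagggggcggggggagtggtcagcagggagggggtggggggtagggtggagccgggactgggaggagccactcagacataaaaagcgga
Meg3, chr12:109540746-109540995, plus strand: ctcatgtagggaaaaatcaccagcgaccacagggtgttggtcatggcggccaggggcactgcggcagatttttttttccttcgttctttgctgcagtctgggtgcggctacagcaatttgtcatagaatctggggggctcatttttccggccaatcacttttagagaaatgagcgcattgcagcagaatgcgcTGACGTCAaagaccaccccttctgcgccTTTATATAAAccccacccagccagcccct
Peg3, chr7:6730420-6730669, minus strand: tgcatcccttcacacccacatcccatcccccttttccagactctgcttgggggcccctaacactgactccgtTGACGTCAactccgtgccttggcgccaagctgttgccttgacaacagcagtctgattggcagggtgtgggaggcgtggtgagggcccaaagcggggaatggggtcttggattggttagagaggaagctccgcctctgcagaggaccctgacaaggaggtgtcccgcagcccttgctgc

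The cAMP response element lay 57 bases before the start of Meg3 and 178 bases before that of Peg3. Over RefSeq promoter windows of 300 bases, 250 before and 50 after the start, 1.79% of 32851 held these letters. Of the 15 such windows listed for 8 of the members, 2 did. TATAAA, read on both strands, was in 13.6% of all windows and among the members only in that of Meg3, where 2 matches on opposite strands overlap. The Igf2 window held neither motif. Both motifs were chosen after the sequences were seen, and a match of letters is no measure of binding. The letters TGCCGC (ZFP57) and GGGGCCCC (PLAGL1) were also searched and are not marked above. TGCCGC was in 11.6% of all windows and in 6 of the 15 member windows, from Grb10, Igf2, Meg3, Mest and Plagl1. The 15 are not independent, as the Mest windows chr6:30737800-30738099 and chr6:30737803-30738102 are nearly the same stretch. GGGGCCCC was in 1.08% of all windows and in 1 member window, that of Peg3. The windows also differed in CpG sites, the targets of imprinting methylation. The median over all windows was 7 sites. For each gene, the window given here is the one nearest to the starts of the transcripts with the most assigned reads. It had 45 sites in Grb10, 34 in Igf2r, 26 in Plagl1, 17 in Mest, 13 in both Meg3 and Peg3, and 7 in Igf2. Start sites were not measured, so these counts do not show which promoter was used.

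In the comparison of the labels, 0 of the 9 tested members passed edgeR's quasi-likelihood test at a Benjamini-Hochberg adjusted p under 0.05 in either direction. Over all genes tested, 1.81% passed as higher and 2.29% as lower under the Ptpro-KO label. The log2 fold change was positive for 8 members and negative for Grb10, with a median of 0.55 beside 0.03 over all tested genes. In Igf2, Meg3, Peg3, Cdkn1c and Igf2r every library labelled Ptpro-KO lay above every library labelled WT, and no member had the opposite order. Such separation was seen for 16.8% of all tested genes upward and 15.7% downward. At an unadjusted p under 0.05, edgeR had 3 members as higher (Igf2, Meg3 and Cdkn1c) and 0 as lower. Over all 17663 genes tested, 2413 (13.7%) were higher and 2002 lower at that threshold. DESeq2, the other count model run, called the same 3 members higher and 0 lower, with 8.72% of its 19781 genes called higher and 7.06% lower. 

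**Figure D1:**
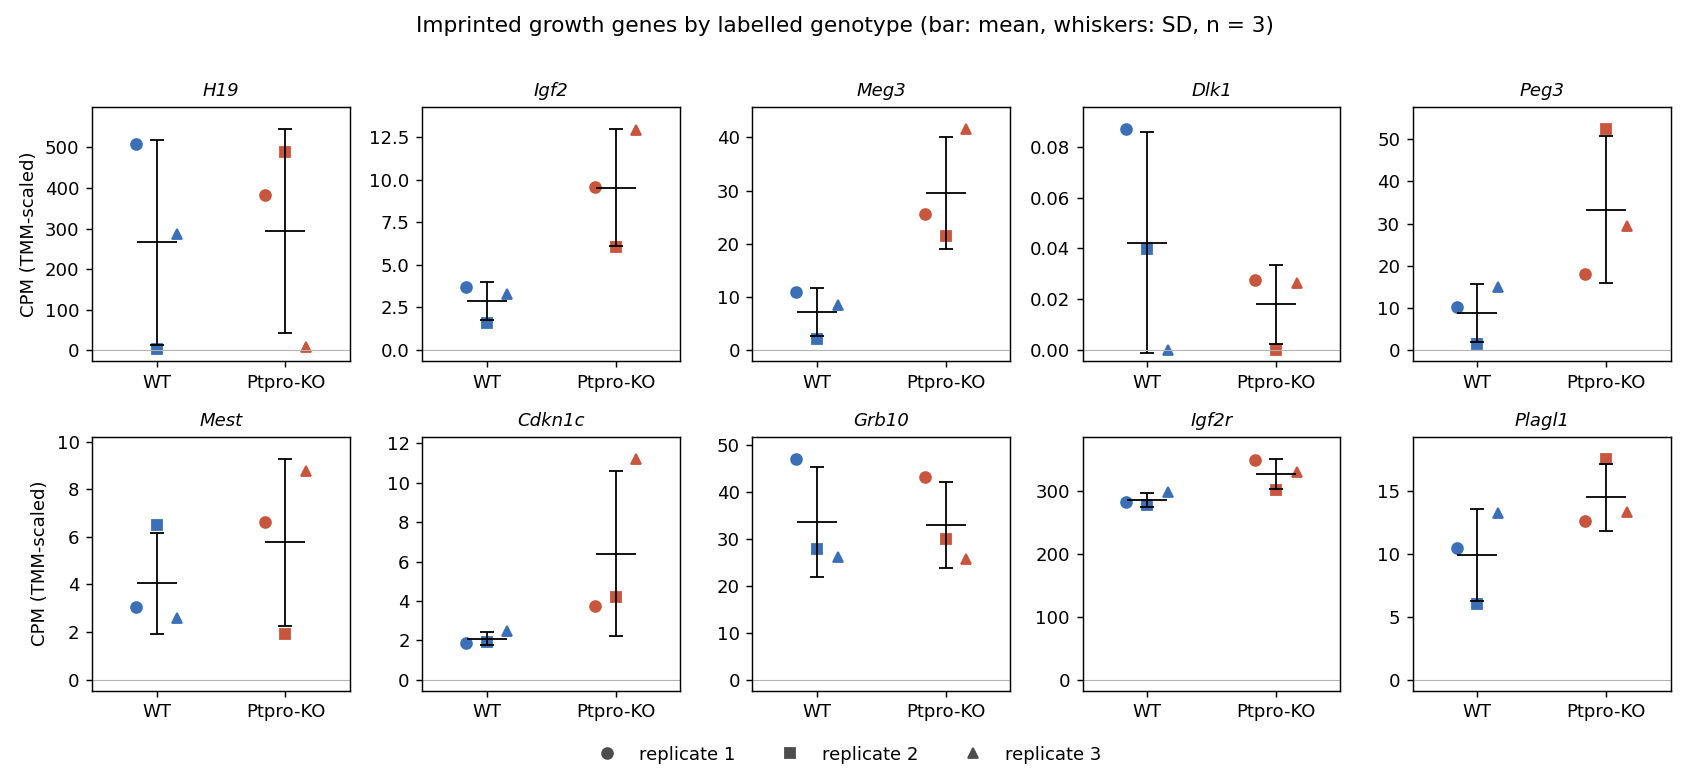
Level of each of the 10 genes (vertical axes, CPM scaled by TMM, each panel with its own scale) in the 3 libraries labelled WT and the 3 labelled Ptpro-KO. Points are libraries, long bars are means and whiskers are SDs; H19 was low in 1 library of each label, and Igf2, Meg3, Peg3, Cdkn1c and Igf2r had no overlap between labels.

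H19 (ENSMUSG00000000031; GRCm38 chromosome 7, 142575529 to 142578143, minus strand) is a long non-coding RNA made in quantity in the fetus and kept in adult muscle. Its level was 508, 3.75 and 287 CPM in WT replicates 1 to 3 and 382, 489 and 8.75 CPM in Ptpro-KO replicates 1 to 3. A single library under each label was therefore very low, and the highest library exceeded the lowest 136-fold under the WT label and 55.8-fold under the Ptpro-KO label. The means were 266 ± 253 CPM (SD, n = 3) and 293 ± 252 CPM (SD, n = 3). The log2 fold change of 0.14 (SE 1.70) did not pass (edgeR with Benjamini-Hochberg adjustment, adjusted p = 0.970). Of the H19 reads, 88.5% lay on 1 of its 5 annotated transcripts.

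The libraries low in H19 were the same 2 that held few skeletal muscle reads. Acta1, the skeletal muscle actin, was at 4266, 50.1 and 2709 CPM under the WT label and at 4130, 1996 and 46.8 CPM under the Ptpro-KO label. The 10 skeletal muscle markers summed to 13293, 61.9 and 9218 CPM and to 14312, 6222 and 269.8 CPM in the same order, and none of the 10 was at 0 in any library. Muscle stem cell and myoblast markers (Pax7, Myf5, Myod1 and Myog) were all at 0 in WT replicate 2. Per 1000 CPM of the summed muscle markers, H19 came to 38.2, 60.6 and 31.1 CPM and to 26.7, 78.5 and 32.4 CPM. These values overlapped between labels and spanned a narrower range than H19 itself, but they depend on the markers summed. In Ptpro-KO replicate 3, Des, also a smooth muscle marker, gave 188 of the 269.8 CPM. Myh1, another of the 10, varied more than H19, with the highest library 1612-fold above the lowest beside 136-fold for H19. Among 12411 genes of sufficient level, those whose log2 CPM was most like that of H19 over the 6 libraries were Lmod2, Myh1, Trdn, Ryr1 and Neb. Lmod2, Myh1 and Trdn each had a Pearson r of 0.991 and Ryr1 and Neb each had 0.989. All 5 encode parts of the contractile or calcium-release apparatus of striated muscle, and the points share their libraries, so r is a description. The part of muscle cells in the H19 level was not tested. Nctc1, a non-coding RNA that lies near H19 and is known from muscle, was at 21.5, 0 and 14.9 CPM and at 21.8, 3.73 and 0.079 CPM.

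Without these 2 libraries, a choice made after seeing the data, the log2 fold change of H19 was 0.13 (SE 0.33) with 2 libraries a label (edgeR with Benjamini-Hochberg adjustment, adjusted p = 0.869). The libraries left out are the lowest in H19 of each label, so the smaller SE follows from leaving them out. With 1 library left out at a time the log2 fold change ran from -0.45 without WT replicate 2 to 1.01 without WT replicate 1, and its sign changed.

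**Figure D2:**
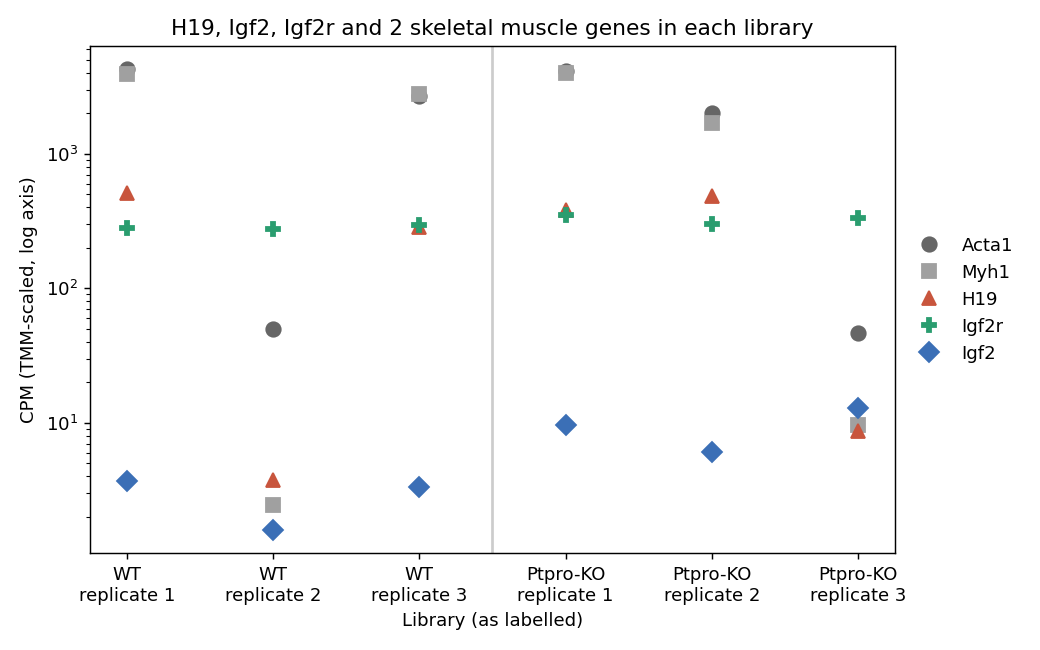
Level of H19, Igf2, Igf2r and the skeletal muscle genes Acta1 and Myh1 (vertical axis, CPM on a log scale) in each of the 6 libraries (horizontal axis). H19, Acta1 and Myh1 were low together in WT replicate 2 and Ptpro-KO replicate 3, where Igf2r stayed between 277 and 330 CPM.

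H19 is also the host of the microRNA miR-675, which is cut from its first exon. The hairpin lies at chr7:142577064-142577147 on the minus strand (RefSeq, GRCm38.p6) and is 84 bases long. Its 2 mature products of 22 bases are printed because the RNA that carries them varied most among the tested members, with the seed (bases 2 to 8) in capitals.
mmu-miR-675-5p: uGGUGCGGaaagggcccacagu
mmu-miR-675-3p: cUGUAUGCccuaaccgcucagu

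The seeds of the 2 arms differ. The deposited hairpin entry Mir675 had 171, 1 and 72 reads under the WT label and 173, 195 and 5 under the Ptpro-KO label, which was 0.893% to 1.51% of the H19 reads of the same library. The mature microRNAs were not measured, since the hairpin entry overlaps the H19 exon and its reads can come from H19 itself.

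Igf2 (ENSMUSG00000048583; chromosome 7, 142650766 to 142666816, minus strand) encodes insulin-like growth factor 2, the fetal growth factor whose gene shares enhancers with H19, from which it lies 72.6 kb away. It was measured at 3.68, 1.59 and 3.31 CPM under the WT label and at 9.60, 6.08 and 12.9 CPM under the Ptpro-KO label. All 3 libraries labelled Ptpro-KO were higher than all 3 labelled WT. The means were 2.86 ± 1.11 CPM (SD, n = 3) and 9.54 ± 3.43 CPM (SD, n = 3). Its log2 fold change of 1.73 (SE 0.43) had an adjusted p of 0.0806 by edgeR with Benjamini-Hochberg adjustment, which missed the threshold. DESeq2 gave an adjusted p of 0.00169, and over all 17 alternatives the adjusted p ran from 0.00169 to 0.230. Of the Igf2 reads, 98.2% were assigned to the transcript that starts at the promoter printed above. How reads shared by isoforms were assigned is not known, so use of that promoter was not measured.

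H19 and Igf2 had the same order of libraries under the WT label, both lowest in WT replicate 2, and the opposite order under the Ptpro-KO label. The ratio of H19 to Igf2 CPM was 138, 2.35 and 86.7 under the WT label and 39.8, 80.4 and 0.676 under the Ptpro-KO label. In Ptpro-KO replicate 3, H19 was at its lowest for that label and Igf2 at its highest. The 5 genes most like Igf2 over the 6 libraries, by Pearson r of log2 CPM, were Ralgps1 at 0.996, Fam117a and Acp2 at 0.993, and Plcl1 and Sec11c at 0.991. No muscle structural gene was among them, nor any of the fibroblast or macrophage markers used here. They are the highest of 12411 genes over 6 libraries, so r is again a description. Without the 2 libraries poor in muscle reads the log2 fold change of Igf2 was 1.16 (edgeR with Benjamini-Hochberg adjustment, adjusted p = 0.174).

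Fibroblast markers, the collagens and stromal genes of the connective tissue, moved in the same direction. The 8 markers summed to 1972, 364 and 876 CPM under the WT label and to 4287, 4699 and 3014 CPM under the Ptpro-KO label, with none at 0. Of the 8, 2 passed as higher, all 8 were positive and the median log2 fold change was 1.54. The libraries of the labels were separated for 5, all upward, and overlapped for 3 (Dcn, Lum and Dpt). Among all tested genes, 1.81% passed as higher, 16.8% were separated upward and the median log2 fold change was 0.03. Col3a1 had the highest mean of the 8 under both labels, at 486 and 2176 CPM, so the sum weighs collagen RNA most. Per 1000 CPM of the summed fibroblast markers, Igf2 came to 1.87, 4.38 and 3.78 CPM and to 2.24, 1.29 and 4.29 CPM, and on that scale the labels overlapped. The sum was itself higher under the Ptpro-KO label and spread from 364 to 1972 CPM under the WT label. Overlap after division by it, for this and other genes, therefore does not measure what fibroblasts contribute. Macrophage markers summed to 66.2 to 230 CPM under the WT label and 398 to 753 CPM under the Ptpro-KO label. The part of these cell types in the Igf2 difference was not tested.

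Igf2r (ENSMUSG00000023830; chromosome 17, 12682406 to 12769664, minus strand) encodes the receptor that takes IGF2 up for breakdown in lysosomes and sorts lysosomal enzymes. By the highest over the lowest library it varied least among the tested members, at 281.3, 277 and 297 CPM under the WT label and 349, 301 and 330 CPM under the Ptpro-KO label. The labels did not overlap, with 301 CPM as the lowest value of one and 297 CPM as the highest of the other. The means were 285 ± 10.5 CPM (SD, n = 3) and 327 ± 23.9 CPM (SD, n = 3), a log2 fold change of 0.20 (SE 0.11) that did not pass (edgeR with Benjamini-Hochberg adjustment, adjusted p = 0.325). Airn, the paternally expressed non-coding RNA that runs antisense to Igf2r and silences it on that copy, was at 9.34, 8.65 and 10.2 CPM and at 11.8, 14.0 and 8.72 CPM, and the labels overlapped. No source used here tells whether strand was kept, so reads from the overlapping parts of Igf2r and Airn cannot be told apart.

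Among 15 listed partners of the IGF axis, 13 were tested, and 1 rose and 1 fell. Over all genes tested, 1.81% passed as higher and 2.29% as lower. Irs1, the adaptor that carries the signal of the IGF1 and insulin receptors, rose from 12.0 ± 2.45 CPM (SD, n = 3) to 42.2 ± 6.94 CPM (SD, n = 3), a log2 fold change of 1.82 (SE 0.21; edgeR with Benjamini-Hochberg adjustment, adjusted p = 0.0196). Igfbp2, a secreted binding protein of both growth factors, fell from 113 ± 37.0 CPM (SD, n = 3) to 24.4 ± 8.76 CPM (SD, n = 3), a log2 fold change of -2.22 (SE 0.38; edgeR with Benjamini-Hochberg adjustment, adjusted p = 0.0411). Both calls were lost in 8 of 17 alternatives, among them the fit without the libraries poor in muscle reads. Igf1, the second ligand of the IGF1 receptor, was at 12.7 ± 8.77 CPM (SD, n = 3) and 74.8 ± 6.48 CPM (SD, n = 3), and its log2 fold change of 2.56 had an edgeR adjusted p of 0.0612. It passed in 4 of 17 alternatives (total count scaling, DESeq2 and both limma fits), with adjusted p from 3.12e-05 to 0.225 over all 17, and the log2 fold change was 3.21 without WT replicate 1. Igf2bp2 and Igf2bp1, which bind the Igf2 messenger, had log2 fold changes of 2.17 (edgeR adjusted p = 0.0736) and -1.57 (edgeR adjusted p = 0.0919). DESeq2 called Igf2bp2 (adjusted p = 0.000539, in a range up to 0.234), whose log2 fold change was 2.76 without WT replicate 2 and 3.05 without both libraries poor in muscle reads. Irs2, an adaptor like Irs1, had -0.32 (edgeR adjusted p = 0.666).

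Meg3 (ENSMUSG00000021268; chromosome 12, 109541001 to 109571726, plus strand) is a maternally expressed long non-coding RNA with growth-restraining activity in cell lines. Its level was 10.8, 2.15 and 8.54 CPM under the WT label and 25.6, 21.5 and 41.6 CPM under the Ptpro-KO label. The labels did not overlap, and WT replicate 2 was the lowest of the 6. The means were 7.18 ± 4.50 CPM (SD, n = 3) and 29.5 ± 10.6 CPM (SD, n = 3). The log2 fold change of 2.04 (SE 0.61) was the highest of the members and missed the threshold (edgeR with Benjamini-Hochberg adjustment, adjusted p = 0.114). DESeq2 gave an adjusted p of 0.00563, within a range of 0.00563 to 0.277 over the alternatives. Meg3 reads were spread over several of its 11 transcripts, with 40.6% on the most covered.

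The other non-coding RNAs of that cluster, Rian, a host of small nucleolar RNAs, and Mirg, a host of microRNAs, had the same order of labels. Rian was at 14.7, 3.47 and 12.6 CPM under the WT label and at 34.4, 22.4 and 34.6 CPM under the Ptpro-KO label, a log2 fold change of 1.57 (edgeR with Benjamini-Hochberg adjustment, adjusted p = 0.143). Mirg was at 1.30, 0.478 and 1.71 CPM and at 4.37, 2.74 and 3.00 CPM, a log2 fold change of 1.53 (edgeR with Benjamini-Hochberg adjustment, adjusted p = 0.132). WT replicate 2 was the lowest library for all 3 RNAs. Rian and Mirg missed the threshold in edgeR, as Meg3 did, and passed in DESeq2, with adjusted p of 0.0242 for Rian (0.0242 to 0.297 over its alternatives) and 0.0286 for Mirg (0.0286 to 0.282). The ratio of Meg3 to Rian CPM was 0.739, 0.621 and 0.676 under the WT label. Under the Ptpro-KO label it was 0.744, 0.960 and 1.20. The labels did not overlap, but 0.739 and 0.744, both from replicate 1, were nearly equal. How often the ratios of other gene pairs separate was not tested.

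Dlk1 (ENSMUSG00000040856; chromosome 12, 109452823 to 109463336, plus strand), a membrane protein of progenitor cells that holds back fat cell formation, lies 77.7 kb before Meg3 and is read from the other parental copy. It had 3, 1 and 0 reads under the WT label and 1, 0 and 1 under the Ptpro-KO label, too few to test. Rtl1, a retrotransposon-derived and paternally expressed gene of the same cluster, had 1, 0 and 0 reads and 1, 2 and 1 reads. Dlk1 and Rtl1 were thus near the limit of detection in libraries where Meg3 and Rian were clearly measured. Dio3, the thyroid hormone deiodinase at the far end of the cluster, was at 6.93, 1.24 and 1.32 CPM and at 0.913, 0.563 and 1.84 CPM, and the labels overlapped.

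Per 1000 CPM of fibroblast markers, Meg3 came to 5.50, 5.91 and 9.76 CPM under the WT label and 5.97, 4.57 and 13.8 CPM under the Ptpro-KO label, and the labels overlapped on that scale. The part of fibroblasts in the Meg3 difference was not tested. Without the libraries poor in muscle reads the log2 fold change was 1.28 (edgeR with Benjamini-Hochberg adjustment, adjusted p = 0.0958), 2 libraries a label.

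**Figure D3:**
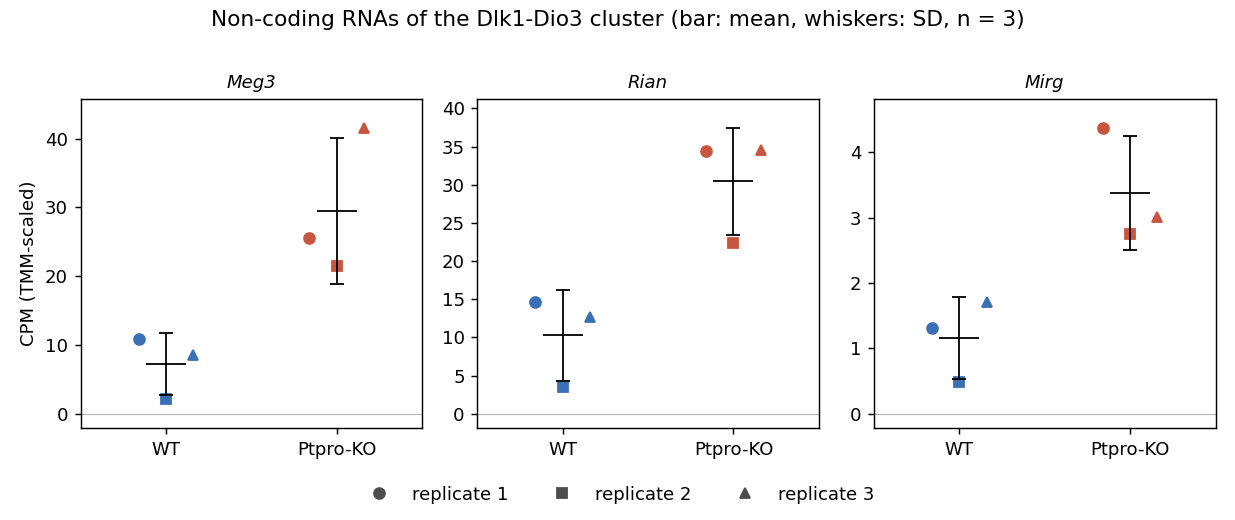
Level of the maternally expressed non-coding RNAs Meg3, Rian and Mirg (vertical axes, CPM scaled by TMM) in the 3 libraries of each label. Points are libraries, long bars are means and whiskers are SDs; in each panel all points labelled Ptpro-KO lie above all points labelled WT, and WT replicate 2 is the lowest.

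Peg3 (ENSMUSG00000002265; chromosome 7, 6703892 to 6730431, minus strand) encodes a large zinc finger protein found in stem cells, muscle precursors and stroma. It was at 10.2, 1.43 and 14.99 CPM under the WT label and at 18.2, 52.4 and 29.5 CPM under the Ptpro-KO label. The labels did not overlap, but 14.99 and 18.2 CPM lay close to each other. The means were 8.88 ± 6.87 CPM (SD, n = 3) and 33.3 ± 17.5 CPM (SD, n = 3). For Peg3 the log2 fold change of 1.91 (SE 0.83) did not pass (edgeR with Benjamini-Hochberg adjustment, adjusted p = 0.226), nor did it with DESeq2 (adjusted p = 0.0676, the lowest of a range up to 0.405). Over left-out libraries it ran from 1.40 without WT replicate 2 to 2.505 without WT replicate 3. Per 1000 CPM of fibroblast markers, Peg3 came to 5.18, 3.94 and 17.1 CPM and to 4.24, 11.2 and 9.78 CPM, and the labels overlapped. The part of fibroblasts in the Peg3 difference was not tested. Usp29, which starts beside Peg3 and is also paternally expressed, had 0 reads in every library labelled WT and 1, 1 and 2 reads under the Ptpro-KO label.

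Plagl1 (ENSMUSG00000019817; chromosome 10, 13060504 to 13131694, plus strand) encodes a zinc finger factor that slows the cell cycle and is known to act on other imprinted genes. It was at 10.4, 5.98 and 13.3 CPM under the WT label and at 12.6, 17.6 and 13.3 CPM under the Ptpro-KO label. The labels overlapped, and the lowest library was again WT replicate 2. Plagl1 had a log2 fold change of 0.55 (SE 0.32; edgeR with Benjamini-Hochberg adjustment, adjusted p = 0.348).

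Mest (ENSMUSG00000051855; chromosome 6, 30723547 to 30748465, plus strand) encodes an enzyme of the hydrolase family that goes with growth of fat and mesoderm. Its order of libraries was another one, with 3.04, 6.50 and 2.60 CPM under the WT label and 6.64, 1.92 and 8.78 CPM under the Ptpro-KO label. WT replicate 2 was the highest of its label and Ptpro-KO replicate 2 the lowest of all 6. Mest had a log2 fold change of 0.52 (SE 0.63; edgeR with Benjamini-Hochberg adjustment, adjusted p = 0.658).

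Cdkn1c (ENSMUSG00000037664; chromosome 7, 143458339 to 143461050, minus strand) encodes p57, an inhibitor of cyclin-dependent kinases. Its level was 1.86, 1.91 and 2.49 CPM under the WT label and 3.76, 4.20 and 11.2 CPM under the Ptpro-KO label. The libraries labelled WT lay close together, and Ptpro-KO replicate 3 stood well above the other 5. The means were 2.09 ± 0.352 CPM (SD, n = 3) and 6.40 ± 4.19 CPM (SD, n = 3). For Cdkn1c the log2 fold change of 1.61 (SE 0.49) missed the threshold (edgeR with Benjamini-Hochberg adjustment, adjusted p = 0.116), while DESeq2 gave 0.0167 in a range of 0.0167 to 0.272 over the alternatives. Without Ptpro-KO replicate 3, the library with stomach reads, the log2 fold change was 0.93, and without both libraries poor in muscle reads it was 0.87. Per 1000 CPM of fibroblast markers, Cdkn1c came to 0.941, 5.26 and 2.85 CPM and to 0.878, 0.894 and 3.72 CPM, again with overlap. The libraries labelled WT were close together only before this division. The part of fibroblasts in the Cdkn1c difference was not tested.

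Cdkn1c lies in the domain controlled by Kcnq1ot1, a paternally expressed non-coding RNA that runs antisense to the potassium channel gene Kcnq1 and silences genes around it. Kcnq1 rose from 2.87, 2.31 and 2.99 CPM under the WT label to 29.7, 24.7 and 43.2 CPM under the Ptpro-KO label, a log2 fold change of 3.58 (SE 0.27; edgeR with Benjamini-Hochberg adjustment, adjusted p = 0.0125). Its adjusted p reached 0.0720 without WT replicate 3 and it also missed the threshold without WT replicate 2, without Ptpro-KO replicate 2 and without both libraries poor in muscle reads. Kcnq1ot1 itself was at 420, 413 and 421 CPM and at 269.8, 334 and 325 CPM. The labels did not overlap, in the opposite order to Kcnq1 and Cdkn1c, and the log2 fold change of -0.43 (SE 0.12) did not pass (edgeR with Benjamini-Hochberg adjustment, adjusted p = 0.105). With strand unknown, reads where Kcnq1 and Kcnq1ot1 overlap cannot be told apart. An effect of Kcnq1ot1 on the genes around it was not tested. Phlda2, a maternally expressed restrainer of placental growth in the same domain, had a log2 fold change of 0.92 (edgeR adjusted p = 0.0771), and Ascl2, a factor of placental and intestinal stem cells, had -1.84 (edgeR adjusted p = 0.103). DESeq2 called Kcnq1ot1 (adjusted p = 0.00463, in a range up to 0.509), Phlda2 (0.00549, up to 0.246) and Ascl2 (0.00932, up to 0.259). The labels overlapped for Slc22a18, Cd81, Tssc4, Nap1l4, Tspan32 and Osbpl5, listed from the same domain. Their log2 fold changes ran from -0.12 in Osbpl5 to 1.72 in Tspan32.

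Grb10 (ENSMUSG00000020176; chromosome 11, 11930508 to 12038683, minus strand) encodes an adaptor that dampens signalling of the insulin and IGF1 receptors. It was at 47.1, 27.8 and 26.1 CPM under the WT label and at 43.3, 29.98 and 25.6 CPM under the Ptpro-KO label. The labels overlapped almost fully, with means of 33.6 ± 11.7 CPM (SD, n = 3) and 33.0 ± 9.20 CPM (SD, n = 3). The log2 fold change of -0.03 (SE 0.30; edgeR with Benjamini-Hochberg adjustment, adjusted p = 0.964) was the only negative one among the members, and its sign flipped to 0.12 when libraries were scaled by total count.

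**Figure D4:**
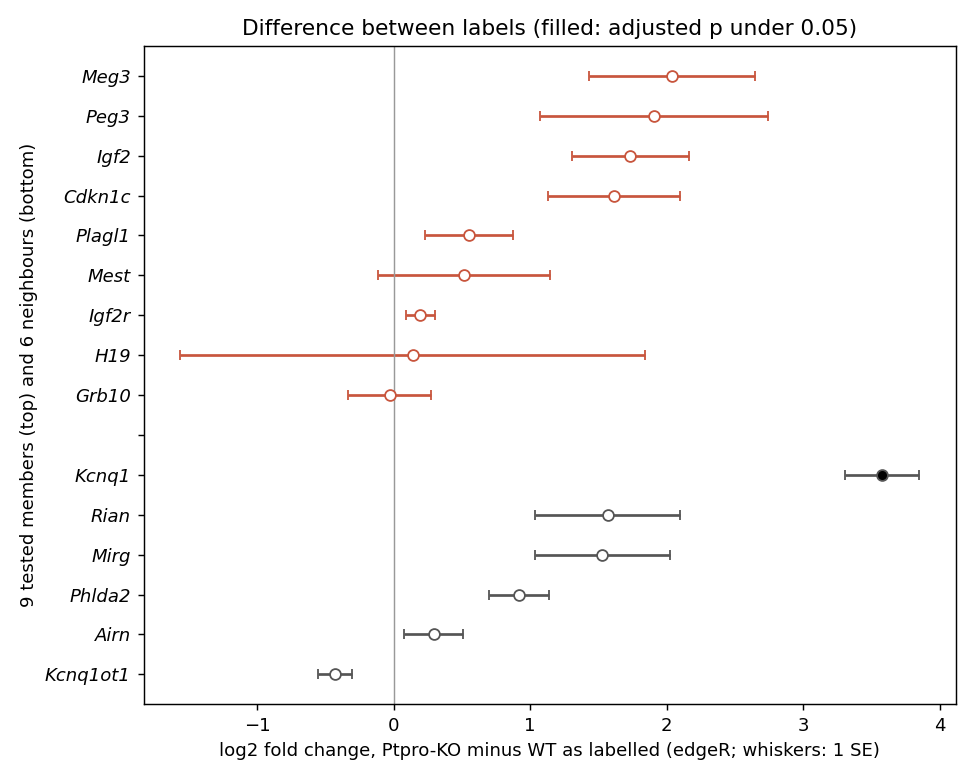
Log2 fold change between labels, Ptpro-KO minus WT, from edgeR (horizontal axis, whiskers 1 SE) for the 9 tested members in the upper block and 6 imprinted neighbours in the lower block. Open points did not pass and the filled point, Kcnq1, passed an adjusted p under 0.05; H19 has the widest whisker, and the sign of H19 and Grb10 changed under other settings.

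Levels can be compared between genes only per transcript length, for which the authors' deposited FPKM values were used. By mean FPKM over the 6 libraries, H19 was first at 119 (range 1.69 to 214), followed by Igf2r at 40.9 (37.2 to 46.6) and Grb10 at 7.10 (5.40 to 9.64). Next came Meg3 at 6.66 (0.704 to 15.2), Cdkn1c at 3.36 (1.44 to 8.73), Plagl1 at 2.71 (1.37 to 4.02) and Peg3 at 2.25 (0.123 to 5.66). Mest at 1.96 (1.02 to 3.22), Igf2 at 1.86 (0.482 to 3.94) and Dlk1 at 0.00853 (0 to 0.0242) were last. The ranges of neighbours in this order overlapped except between Igf2r and Grb10 and between Igf2 and Dlk1. H19 was above Igf2r in 4 of the 6 libraries, all but those poor in muscle reads.

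Of 60 other imprinted genes listed, 57 were found by symbol and 47 were tested. Kcnq1 was the 1 gene that rose and Dlx5 the 1 that fell, near the 1.81% and 2.29% of all tested genes. Of the log2 fold changes, 28 were positive and 19 negative, and the median was 0.15. Libraries were separated upward for 8 and downward for 6 of the 47, near the 16.8% and 15.7% of all tested genes. Dlx5, a homeobox factor of bone and craniofacial development, fell from 1.99 ± 0.656 CPM (SD, n = 3) to 0.252 ± 0.112 CPM (SD, n = 3), a log2 fold change of -2.95 (SE 0.45; edgeR with Benjamini-Hochberg adjustment, adjusted p = 0.0325). That call was lost in every fit that left out a library. Gatm, an enzyme of creatine synthesis, was at 2.46, 0.917 and 1.67 CPM under the WT label and at 28.3, 3.66 and 13.02 CPM under the Ptpro-KO label. Its log2 fold change of 3.14 (edgeR adjusted p = 0.0869) was 2.27 without Ptpro-KO replicate 1, and DESeq2 called it (adjusted p = 0.000361, in a range up to 0.264). Split by place, the neighbours of the 10 members had a median of 0.11 over 21 tested genes and imprinted genes elsewhere a median of 0.27 over 26.

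Of 17 genes that set or keep imprints, 16 were tested, of which 0 rose and 1 fell, with a median log2 fold change of -0.09. Beside them, 1.81% of all tested genes rose and 2.29% fell. Dnmt3l, the cofactor of de novo methylation in germ cells, fell from 4.15 ± 1.75 CPM (SD, n = 3) to 0.821 ± 0.185 CPM (SD, n = 3), a log2 fold change of -2.33 (SE 0.42; edgeR with Benjamini-Hochberg adjustment, adjusted p = 0.0438), and it passed in 5 of 17 alternatives. Zfp57, which protects methylated imprints in the embryo, had a log2 fold change of 1.20 (edgeR adjusted p = 0.134). Ctcf, the insulator protein of the H19 and Igf2 domain, had -0.29 (edgeR adjusted p = 0.135). Dnmt1, the maintenance methylase, had -0.28 (edgeR adjusted p = 0.412), Tet2 had 0.20 (edgeR adjusted p = 0.408) and Zfp445 had 0.04 (edgeR adjusted p = 0.864).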

How the data were processed

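RNA of 6 carcinomas, 3 per label, was sequenced by Illumina. The submitters' processing notes name Bowtie 0.12.2 and the build mm10. The authors deposited whole read counts per Ensembl transcript with RPKM, which equals the count over transcript length and library total. FPKM values per gene came from a second table deposited by the authors, of which 2 further columns were not used. Strand and the handling of reads shared by isoforms were not given in the sources used here. Counts were summed per symbol (41253 symbols, 100249 transcripts, 97.2% of them in GENCODE M21, which gave positions). Reads per library ran from 25745240 to 39827467.

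Genes were kept by filterByExpr (10 counts scaled by library size, 15 in total), scaled by TMM and fitted in edgeR 4.0.16 (quasi-likelihood, R 4.3.3), Ptpro-KO minus WT as labelled, with the Benjamini-Hochberg threshold at 0.05 over all 17663 genes tested. CPM values use TMM library sizes. A standard error is the log2 fold change over the root of the F statistic. Adjusted p values come from edgeR unless DESeq2 1.42.0 or limma 3.58.1 (on log2(FPKM + 1) or log2(FPKM + 0.1)) is named. The fit was tested on simulated counts.

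Libraries were taken as separate mice, as the design text gives 3 per group. Within a label none was a duplicate of another (chi-square per degree of freedom 66.9 to 307). Libraries of different labels were not compared in this way. The members and gene lists were chosen with earlier results of these data known. Named genes were all members, list genes that passed and up to 3 per direction with the smallest p, 6 neighbours, and the 5 genes most like H19 and Igf2. Acta1, Des, Nctc1, Dio3, the further genes of the Kcnq1ot1 domain and the genes of the last closing part were named after their values were seen. Other alternatives were scalings, filters, the transcript with most reads, left-out libraries, a replicate block and, after seeing the data, sex as a term and leaving out the 2 libraries poor in muscle reads.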

Additional observations from a re-analysis of the deposited data

How the results depend on the processing

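No member passed in either direction in edgeR or limma under any setting, and DESeq2 called 3 higher. For all genes, edgeR called 320 higher and 405 lower. Scaling by total count gave 630 higher and moved the median log2 fold change of all genes from 0.03 to 0.19. DESeq2 gave 1724 higher and 1396 lower, and for the other imprinted genes 5 higher and 3 lower. limma on log2(FPKM + 0.1) called 2 other imprinted genes higher. The replicate block gave 133 higher and 104 lower (172 of its 237 calls shared with the unblocked fit) and 0 other imprinted genes lower. The labels do not say whether replicate numbers pair the mice, so the main fit had no block. The deviations of same-numbered libraries correlated at 0.539, 0.0803 and -0.243, which cannot show whether mice shared a litter or day. With sex as a term 64 were higher and 122 lower. Without both muscle-poor libraries edgeR called 0 genes higher and 0 lower (3627 at an unadjusted p under 0.05), and 0 other imprinted genes either way. Leaving out 1 library gave 0 to 253 higher and 0 to 243 lower, 0 members, 0 to 1 other imprinted genes higher and 0 lower; the 0 came on leaving out WT replicate 2, on leaving out WT replicate 3 and on leaving out Ptpro-KO replicate 2, with 3369, 3078 and 4363 genes at an unadjusted p under 0.05. The log2 fold change of H19 reversed to -0.24 with the replicate block and ran from -0.45 to 1.01 over left-out libraries. That of Grb10 reversed to 0.12 with total counts and to 0.012 and 0.014 in limma with pseudocounts of 1 and 0.1, and ran from -0.31 to 0.29. Over left-out libraries Irs2 ran from -0.55 to 0.17 and Zfp445 from -0.047 to 0.093; Irs2 was 0.12 without both muscle-poor libraries. The cause of these changes was not tested. Igf2, Meg3, Peg3, Cdkn1c, Igf2r, Plagl1 and Mest stayed positive in all 17 alternatives. With 3 libraries a label the spread between mice, and for Dlk1 the depth, limits these values.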

Other observations

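Further genes of the imprinted and IGF lists were lowest in WT replicate 2, the library poorest in both muscle and fibroblast reads; they were chosen after their values were seen. Ndn, a neuronal growth suppressor, was at 2.99, 0.0797 and 1.64 CPM under the WT label and at 3.93, 1.01 and 3.22 CPM under the Ptpro-KO label. Sgce, a sarcoglycan, was at 4.81, 1.28 and 3.31 CPM and at 7.09, 3.52 and 7.93 CPM. Igfbp5, an IGF binding protein, was at 245.6, 10.8 and 159 CPM and at 199, 56.6 and 168 CPM. In contrast Gnas, which encodes a stimulatory G protein, lay between 320 and 445 CPM in all 6 libraries.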
